A study of Mus musculus with 96 samples.

Results

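Interscapular brown adipose tissue (iBAT) was set against inguinal white adipose tissue (iWAT) in mice without a working uncoupling protein 1, kept in the mild cold. The comparison held 16 of the 96 libraries of the series, 8 from each depot, chosen by their labels for genotype, diet, temperature and tissue. Both depots came from male C57BL/6J mice of the genotype UCP1(-/-), fed a control diet with 13% of its energy from fat for 4 weeks at 20 °C, below the thermoneutral range of the mouse. The knockout is thus shared by both sides, and the labels do not say which stretch of Ucp1 the allele lacks or in which cells it acts. The series design describes 6 groups of 8 animals, each giving both depots, but nothing in the labels tells which iBAT and iWAT libraries come from 1 animal. The same pair of depots from wild-type mice on this diet at 20 °C, and from Ucp1-KO mice on this diet at 30 °C, 16 libraries each, served to show where the depot difference itself differed. The comparison asks how the transcriptomes of a brown and a white depot differ when the heat-making protein of brown fat is missing from both.

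Brown adipocytes hold many mitochondria and small fat droplets. In the cold, noradrenaline from sympathetic nerves acts on their beta-adrenergic receptors, raises cyclic AMP and frees fatty acids, which both fuel the respiratory chain and open Ucp1, a proton carrier of the inner mitochondrial membrane that turns the proton gradient into heat. White adipocytes store triglyceride in a single large droplet and secrete hormones such as leptin and adiponectin. In the inguinal depot of the mouse, cold brings out beige adipocytes that use much of the brown programme, and this depot surrounds a lymph node. Mice without Ucp1 can live in mild cold, and other heat-making reactions, such as creatine cycling, calcium cycling and work by muscle, have been proposed for them.

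Transcript levels were given by the authors in RPKM, reads scaled by transcript length in kilobases and by library size in mega (M) reads. This puts genes and libraries on a common scale, but it does not adjust for differences in the make-up of the libraries. Depth, recovered from the spacing of the low values, was 10.42 to 14.19 M reads in the iBAT libraries and 8.90 to 16.11 M in the iWAT libraries. Of 29072 gene symbols, 16310 passed the filter of 0.5 RPKM in 8 libraries of the series and were tested with limma on log2(RPKM + 1); differences are given on that scale as iBAT minus iWAT with the standard error, and adjusted p-values are Benjamini-Hochberg values over all genes tested. A log2 difference on this scale understates the change of genes at low RPKM. Unless stated otherwise, 8 libraries stand behind each depot, levels are the lowest, median and highest library, and brackets give the log2 difference ± standard error followed by the adjusted p. At an adjusted p under 0.05, 3294 genes (20.2%) were higher in iBAT and 6960 (42.7%) were lower. This split depended on the scaling, with 5057 higher and 5408 lower after median-ratio scaling and 5499 higher and 4442 lower after quantile normalization. The median difference over all genes tested was -0.15 as deposited, -0.02 after median-ratio scaling and 0.05 after quantile normalization, so each list median below is to be read against -0.15. In 1363 genes (8.36%) every iBAT library lay above every iWAT library, and in 2936 (18%) every iBAT library lay below. Counts within the lists below are to be read against these shares over all genes tested.

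The libraries matched their depot labels by the position genes below. Each library was compared with the other 7 of its group over all genes tested, and the mean correlation of log2 values was 0.981 to 0.990 in iBAT and 0.973 to 0.983 in iWAT. Libraries are numbered as in the sample titles. The iBAT library 16 was the least like its group and had the highest summed RPKM of skeletal muscle markers of the iBAT libraries. In iWAT the libraries 64 and 60 were the least like the rest; library 64 had the highest thermogenic genes and library 60 the highest muscle markers of that depot. Without these 3 libraries the counts over all genes were 3080 higher and 7103 lower, and the thermogenic list had 27 higher and 2 lower of 35.

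Genes of body position separated the depots with levels at or near 0 on one side. Zic1, a zinc finger factor that marks classical brown fat, measured 2.27, 3.32 and 4.04 RPKM in iBAT, against 0, 0 and 0.0517 RPKM in iWAT (2.08 ± 0.07, 1.2e-42). Hoxc10, a homeobox factor of the posterior trunk, measured 0, 0 and 0.0518 RPKM in iBAT, against 9.78, 11.0 and 14.3 RPKM in iWAT (-3.63 ± 0.07, 6.0e-63). The depots did not overlap for either gene, and each gene was listed at 0 in most libraries of the depot where it was low. The Hox genes are laid out in 4 clusters whose numbers follow the body axis from head to tail. Of 39 Hox genes 28 were tested; 6 were higher in iBAT and 17 were lower, with a median of -0.32, beside 20.2% higher and 42.7% lower among all genes tested. After quantile normalization the counts were 9 higher and 12 lower. The 6 higher genes were Hoxa2, Hoxa4, Hoxa5, Hoxb2, Hoxc4 and Hoxc5, all from the anterior end of their clusters, but the anterior genes Hoxb3, Hoxb5, Hoxd3 and Hoxd4 were lower as deposited; all 4 missed the threshold after quantile normalization, where Hoxb3 and Hoxb5 turned to 0.12 and 0.059. Hoxc4, Hoxc5 and Hoxc6 share transcript sequence, so their reads may have been split between them. Hoxa5 measured 8.70, 10.6 and 12.6 RPKM in iBAT, against 1.32, 1.73 and 2.85 RPKM in iWAT (2.01 ± 0.10). Hoxa9, Hoxa10, Hoxc8 and Hoxc9 were all lower in iBAT without overlap, with differences of -2.40 ± 0.15, -2.29 ± 0.08, -1.78 ± 0.15 and -2.30 ± 0.09. Of 20 tested developmental position factors, Zic1 among them, 7 were higher in iBAT and 9 lower (median -0.23). The shares among all genes tested were 20.2% higher and 42.7% lower. The higher ones included Zic4, Tbx5, En1, Irx3 and Irx5. The factors Shox2, Emx2, Tbx1 and Twist1 were lower in every iBAT library, with differences of -1.62 ± 0.11, -1.22 ± 0.10, -1.13 ± 0.13 and -1.06 ± 0.10. Lhx8 and Tbx15, often used to mark brown and inguinal fat, separated the depots poorly here: Lhx8 was higher by 0.31 ± 0.12 with overlapping libraries, a call lost without the iWAT library 60, 61 or 64, and Tbx15 gave -0.23 ± 0.25 (adjusted p 0.44). Of the other depot markers, Zic1, Cidea, Cox7a1, Cox8b, Ppargc1a and Dio2 were higher in every iBAT library, and Hoxc8, Hoxc9, Hoxc10 and Lep in every iWAT library.

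**Figure D1:**
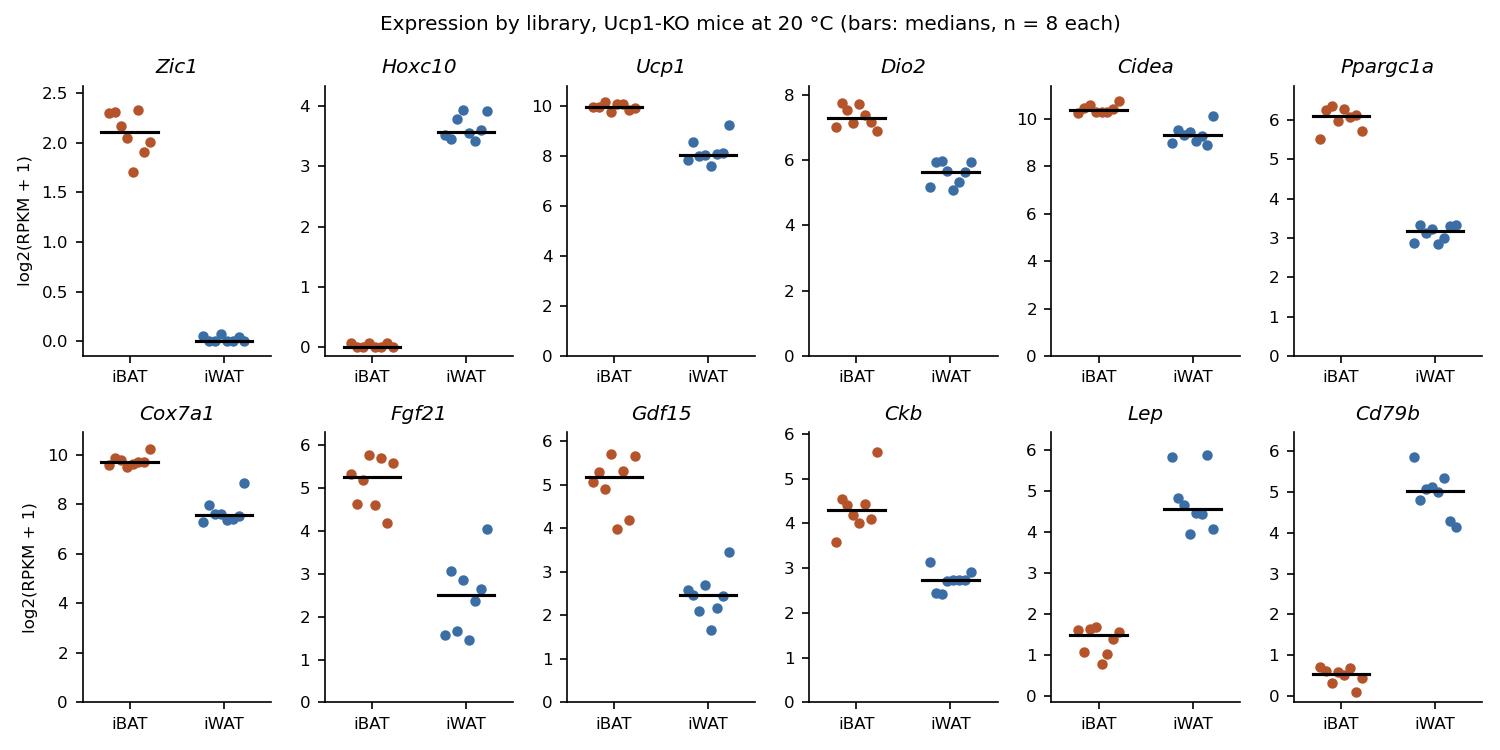
Expression of 12 genes in each library, as log2(RPKM + 1) on the vertical axis, with iBAT at the left and iWAT at the right of each panel; points are libraries of Ucp1-KO mice at 20 °C and bars are medians of 8. Zic1 and Hoxc10 separate the depots with one side close to 0, while Ucp1, Cidea and Dio2 are high in both depots and higher in every iBAT library.

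Ucp1 RNA was still counted in both depots of the knockout. Its level was 867, 993 and 1145 RPKM in iBAT, against 196, 266 and 597 RPKM in iWAT (1.79 ± 0.40, adjusted p 6.6e-05). All iBAT libraries lay above all iWAT libraries, but the iWAT library 64 reached 597 RPKM. Thermogenic genes of the brown adipocyte were mostly higher in iBAT: of 35 listed and tested, 28 were higher and 3 were lower, and the median was 1.22. In 26 of the 35 every iBAT library was above every iWAT library, beside 8.36% of all genes tested. Among the regulators, Ppargc1a, the coactivator that drives mitochondrial biogenesis, measured 45.2, 67.9 and 81.4 RPKM in iBAT, against 6.18, 8.06 and 9.07 RPKM in iWAT (2.91 ± 0.19, 1.5e-23). Every iBAT library was far above every iWAT library. Its relative Ppargc1b, the nuclear receptor Ppara and the estrogen-related receptors Esrra, Esrrb and Esrrg were higher without overlap as well, by 1.22 ± 0.12, 1.46 ± 0.18, 1.02 ± 0.13, 1.07 ± 0.08 and 1.03 ± 0.13. Prdm16, a factor that favours the brown over the muscle fate, was higher by only 0.28 ± 0.11, a call lost without the iWAT library 60, and Ebf2, another brown fat factor, gave 0.18 ± 0.09 (adjusted p 0.093). Ebf2 passed as higher after median-ratio scaling (0.37, adjusted p 0.00053), after quantile normalization (0.38, adjusted p 0.0010) and with summed transcripts (0.27, adjusted p 0.030). Irf4, a cold-induced factor of adipocytes that B cells also express, went the other way, with 1.99, 2.64 and 3.40 RPKM in iBAT, against 6.32, 16.8 and 25.6 RPKM in iWAT (-2.16 ± 0.25).

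Downstream of the regulators, the largest difference of the list was that of Fabp3, a fatty acid binding protein of heart and brown fat, at 289, 377 and 690.4 RPKM in iBAT, against 28.3, 43.4 and 138 RPKM in iWAT (2.94 ± 0.31, 9.4e-14). Dio2, the deiodinase that makes active thyroid hormone inside the cell, measured 118, 155 and 213 RPKM in iBAT, against 32.8, 49.1 and 61.2 RPKM in iWAT (1.73 ± 0.26). Cidea, a droplet protein of thermogenic adipocytes, measured 1224, 1320.0 and 1737 RPKM in iBAT, against 474, 639 and 1119 RPKM in iWAT (1.08 ± 0.22). The libraries overlapped for none of these 3 genes, and the lowest iWAT level of Cidea was still 474 RPKM. Elovl3, an elongase of very long fatty acids, the potassium channel Kcnk3, the carnitine palmitoyltransferase Cpt1b and the glycerol kinase Gyk were higher by 1.68 ± 0.33, 1.83 ± 0.16, 1.44 ± 0.19 and 1.55 ± 0.20. The 3 lower members were Irf4, the secreted factor Nrg4 (-0.39 ± 0.11) and the elongase Elovl6 (-0.53 ± 0.24, adjusted p 0.049), whose call was lost without any of 11 single libraries. Nrg4 and Elovl6 missed the threshold after median-ratio scaling. As deposited, 4 members missed the threshold, among them the beta 3 adrenergic receptor Adrb3, at 55.9, 77.0 and 102 RPKM in iBAT, against 50.2, 66.7 and 89.1 RPKM in iWAT (0.22 ± 0.20, adjusted p 0.33). In bulk tissue, fewer cells of a type and less RNA per cell cannot be told apart.

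Genes proposed as markers of beige cells followed no single direction. Of 10 tested, 6 were lower in iBAT and 2 higher (median -0.73), beside 42.7% lower and 20.2% higher among all genes tested. Tmem26 measured 0, 0.0234 and 0.0644 RPKM in iBAT, against 0.180, 0.571 and 0.835 RPKM in iWAT (-0.62 ± 0.14), and Tnfrsf9, also a gene of lymphocytes, differed by -0.83 ± 0.13. P2rx5 and Slc36a2, which mark brown and beige adipocytes, were higher by 0.45 ± 0.12 and 0.42 ± 0.10. Slc36a2 missed the threshold after quantile normalization (0.11, adjusted p 0.37).

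The oxidative machinery was higher in iBAT almost throughout. All 36 nuclear subunits of complex I were higher (median 0.97), beside 20.2% of all genes tested. In 27 of them no iWAT library reached the iBAT range, beside 8.36% of all genes. Ndufs8, an iron-sulfur subunit, measured 214, 229.9 and 324 RPKM in iBAT, against 71.3, 86.8 and 154 RPKM in iWAT (1.34 ± 0.11, 1.1e-19). Every iBAT library was above every iWAT library. Of 39 tested subunits of complexes II to V and cytochrome c, 35 were higher and 1 was lower, with a median of 0.91; after median-ratio scaling 36 were higher and 0 lower. Sdhb of complex II, Uqcrc1 of complex III and the ATP synthase subunit Atp5b were higher by 1.45 ± 0.10, 1.38 ± 0.09 and 1.07 ± 0.12. Of the 4 that were not higher, 2 encode subunit c of the ATP synthase: Atp5g1 was lower as deposited (-0.70 ± 0.25) and Atp5g3 measured 172, 216 and 316 RPKM in iBAT, against 218, 262 and 325 RPKM in iWAT (-0.26 ± 0.13, adjusted p 0.073). Atp5g3 passed as lower after quantile normalization (-0.55, adjusted p 4.3e-07). The others were Cox7c, a cytochrome oxidase subunit, and Atp5j, a subunit of the ATP synthase stalk, at 0.09 ± 0.10 (adjusted p 0.43). Cox7c, Atp5l and Gapdh have near-identical copies elsewhere in the genome and were listed at under 10 RPKM, so their values are uncertain. The tissue-type subunits of cytochrome oxidase had the larger point estimates, with differences of 2.05 ± 0.25 for Cox7a1 against 0.78 ± 0.12 for Cox7a2, and 1.32 ± 0.20 for Cox8b against 0.37 ± 0.10 for Cox8a. The contrast between isoforms was not tested. Cox7a1 measured 726, 831 and 1195 RPKM in iBAT, against 154, 189 and 458 RPKM in iWAT, and the depots did not overlap. After quantile normalization Cox8a turned to -0.08 (adjusted p 0.35).

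Transcripts of the mitochondrial genome were not called higher with the nuclear subunits as deposited. Of 13 listed genes 7 were measured. None of the 7 measured genes passed the test as deposited, and their median was 0.26; 4 passed as higher after median-ratio scaling and 5 after quantile normalization. COX1 measured 8386, 17011 and 20899 RPKM in iBAT, against 12313, 14493 and 19322 RPKM in iWAT (-0.01 ± 0.15, adjusted p 0.96), and ND5 measured 5568, 8585 and 12523 RPKM in iBAT, against 5568, 6785 and 9887 RPKM in iWAT (0.29 ± 0.15, adjusted p 0.075). The libraries of the depots overlapped widely for both genes. COX2, COX3 and ND3 were listed at under 10 RPKM, have nuclear copies, and are uncertain.

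Genes of fuel oxidation in the mitochondrion were mostly higher in iBAT. Of 27 genes of the citric acid cycle and pyruvate entry, 23 were higher and 2 lower (median 0.95). Suclg1, a subunit of succinyl-CoA ligase, measured 611, 703 and 812 RPKM in iBAT, against 164, 194 and 358 RPKM in iWAT (1.77 ± 0.11, 1.5e-25), with no overlap. The opposite held for pyruvate carboxylase, Pcx, which feeds oxaloacetate to fatty acid and glycerol synthesis: 184, 230.2 and 263 RPKM in iBAT, against 424, 504 and 537 RPKM in iWAT (-1.15 ± 0.11). Of 31 genes of fatty acid oxidation, 24 were higher and 3 lower, with a median of 0.86. Acsl5, which activates fatty acids, and Acadvl, the first dehydrogenase for very long chains, were higher by 2.24 ± 0.17 and 1.51 ± 0.11, without overlap. Abcd2, a peroxisomal transporter of very long chain fatty acids, was the clear exception with 9.87, 12.1 and 15.0 RPKM in iBAT, against 51.7, 65.2 and 94.2 RPKM in iWAT (-2.36 ± 0.14). Of 22 genes of branched-chain amino acid breakdown, 12 were higher and 4 lower (median 0.39).

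Glucose genes were mixed by isoform. Of 32, 19 were higher and 6 lower (median 0.63), beside 20.2% higher and 42.7% lower among all genes tested. Hexokinase 1, Hk1, measured 60.8, 69.2 and 107 RPKM in iBAT, against 12.7, 19.2 and 35.9 RPKM in iWAT (1.85 ± 0.15, 9.6e-19), with every iBAT library higher. The heart-type lactate dehydrogenase Ldhb was higher by 1.66 ± 0.12, against 0.30 ± 0.12 for the muscle-type Ldha, which turned to -0.13 (adjusted p 0.14) after quantile normalization. The insulin-regulated transporter Slc2a4 was higher by 0.44 ± 0.12, while the transporter Slc2a3 was lower (-1.58 ± 0.14). The call of Slc2a4 was lost after quantile normalization (0.21, adjusted p 0.11). Gapdh and Pgam1 have near-identical copies and are uncertain.

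Fatty acid synthesis leaned to iWAT to a degree that depended on the scaling and the libraries. Of 24 genes, 2 were higher in iBAT and 13 were lower (median -0.44), beside 20.2% higher and 42.7% lower among all genes tested. After median-ratio scaling 5 were higher and 9 lower, beside 5057 and 5408 of all 16310 genes. After quantile normalization 2 were higher and 16 lower, beside 5499 and 4442 of all genes. Fasn, the fatty acid synthase, measured 1163, 1867 and 3276 RPKM in iBAT, against 2108, 3577 and 4648 RPKM in iWAT (-0.89 ± 0.30, adjusted p 0.0078), and the ranges overlapped. The call of Fasn was lost without libraries 16, 60 and 64 (-0.71, adjusted p 0.061). The list then had 4 higher and 9 lower, beside 3080 higher and 7103 lower of all 16310 genes. Scd1, the main stearoyl-CoA desaturase of fat, was lower in every iBAT library, at 7352, 10666 and 16056 RPKM against 16966, 22355 and 24290.0 RPKM in iWAT (-1.02 ± 0.18). Acaca, the carboxylase that commits acetyl-CoA to synthesis, and the lipogenic factor Srebf1 were lower as well (-0.95 ± 0.23 and -0.90 ± 0.12). Acly, which supplies acetyl-CoA, gave -0.37 ± 0.27 (adjusted p 0.22), and passed as lower after quantile normalization (-0.76, adjusted p 0.014). The higher members were Elovl3 and Scd3, a desaturase close in sequence to Scd1, with 2.36 ± 0.21; reads of the Scd genes may have been split between them.

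Triglyceride and droplet genes lay on both sides. Of 31, 14 were higher in iBAT and 6 lower (median 0.19); after quantile normalization 14 were higher and 12 lower. The droplet proteins Cidea and Plin5, which sit on the small droplets of oxidative cells, were higher. Cidec, a protein of the large white droplet, and the droplet protein Plin4 were lower in every iBAT library (-1.02 ± 0.15 and -1.24 ± 0.14). Gpam and Dgat1, which add and close the triglyceride chain, were higher (1.01 ± 0.12 and 0.42 ± 0.15), and Dgat2 was lower (-0.65 ± 0.19). The call of Dgat1 was lost after quantile normalization (0.12, adjusted p 0.42) and that of Dgat2 after median-ratio scaling (-0.43, adjusted p 0.053). As deposited, the lipase Pnpla2 gave -0.05 ± 0.10 (adjusted p 0.69), and it passed as lower after quantile normalization (-0.37, adjusted p 2.2e-06). Of 21 tested genes of lipid uptake and activation, 9 were higher and 5 lower (median 0.15). Slc27a2 and Slc27a1, fatty acid transport proteins of the same family, lay at opposite ends (1.97 ± 0.31 and -2.34 ± 0.18). Lpl, the lipase of the vessel wall, and Cd36, the fatty acid receptor, gave 0.15 ± 0.16 and 0.21 ± 0.11 (adjusted p 0.42 and 0.086). Cd36 passed as higher after median-ratio scaling (0.43, adjusted p 0.0019) and Lpl with summed transcripts (0.30, adjusted p 0.025). Of 18 tested genes of cholesterol synthesis, 2 were higher and 8 lower (median -0.30), beside 20.2% higher and 42.7% lower among all genes tested. After median-ratio scaling 5 were higher and 6 lower.

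The relatives of Ucp1 did not share its direction. Ucp2 measured 46.9, 66.5 and 99.5 RPKM in iBAT, against 72.2, 106 and 134 RPKM in iWAT (-0.63 ± 0.14, 4.8e-05), and Ucp3 measured 29.1, 39.0 and 49.2 RPKM in iBAT, against 29.9, 33.8 and 38.9 RPKM in iWAT (0.20 ± 0.20, adjusted p 0.38). Ucp2 was lower with some overlap and Ucp3 did not pass. The ADP/ATP carriers Slc25a4 and Slc25a5, which also leak protons, were higher in every iBAT library (0.75 ± 0.19 and 0.72 ± 0.06).

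**Figure D2:**
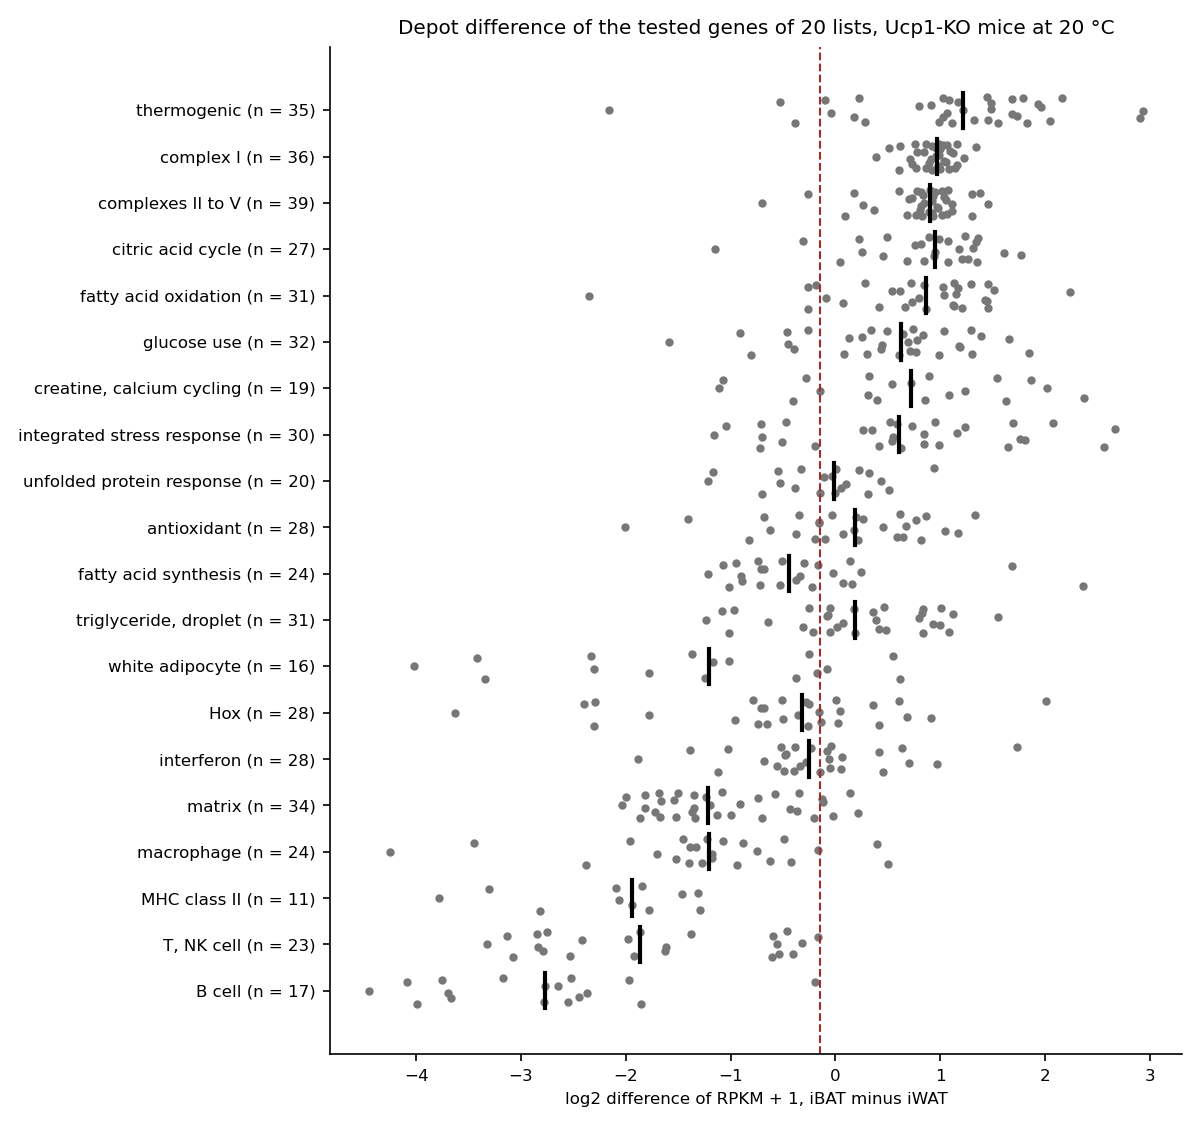
Log2 difference (iBAT minus iWAT) of the tested genes of 20 lists in Ucp1-KO mice at 20 °C; each point is a gene, the black bar is the list median, and the dashed line is the median of all 16310 genes (-0.15). Lists of the respiratory chain and fuel oxidation lie right of the line, and lists of lymphoid cells, antigen presentation and matrix lie left of it.

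The amino acid and mitochondrial stress response stood higher in iBAT. In this pathway, known as the integrated stress response, kinases that sense lack of amino acids or damaged mitochondria raise the factor Atf4, which turns on genes of amino acid supply together with the hormones Fgf21 and Gdf15. Of 30 genes, 20 were higher in iBAT and 7 lower (median 0.61), beside 20.2% higher and 42.7% lower among all genes tested. In 12 every iBAT library was above every iWAT library, beside 8.36% of all genes. Fgf21 measured 17.2, 37.3 and 54.0 RPKM in iBAT, against 1.75, 4.74 and 15.4 RPKM in iWAT (2.66 ± 0.23, 7.7e-18). Gdf15 measured 14.8, 35.3 and 51.1 RPKM in iBAT, against 2.18, 4.50 and 10.0 RPKM in iWAT (2.56 ± 0.30, 2.8e-12). All iBAT libraries exceeded all iWAT libraries for both hormones, although both were clearly present in iWAT. Among the factors, Atf4, Atf5, Ddit3 and the pseudokinase Trib3 were higher by 1.16 ± 0.09, 1.81 ± 0.14, 1.64 ± 0.15 and 2.08 ± 0.17. Mthfd2, a mitochondrial enzyme of one-carbon metabolism, measured 19.7, 22.0 and 27.4 RPKM in iBAT, against 4.13, 5.44 and 11.2 RPKM in iWAT (1.76 ± 0.19). The 7 lower members included Phgdh and Psat1, the first and second steps of serine synthesis, which were lower in iBAT (-1.16 ± 0.18 and -0.51 ± 0.16), while Psph, the last step, was higher by 0.62 ± 0.13. Psat1 missed the threshold after median-ratio scaling. The stress gene Nupr1 was lower (-0.47 ± 0.12), and Chac1, an enzyme that degrades glutathione, gave 0.55 ± 0.30 (adjusted p 0.11) as deposited and passed as higher after either scaling.

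The promoters of Fgf21, Chac1 and Nupr1 are shown because they carry the amino acid response motif TGATGCAA, a composite site bound by Atf4 with a C/EBP partner, searched on both strands in the 250 bases before and 50 after each start in the RefSeq promoter table (build GRCm38.p6). These coordinates belong to the RefSeq build; the build behind the deposited values is not given in the sources used here. The search was added with the values known. The motif was found in 7 of 28 list genes with a promoter (25.0%) and in 279 of 27025 genes overall (1.03%). Each sequence below covers 150 bases of the strand of the gene, 5′ to 3′, with the motif or its reverse complement in capitals: chr7:45615550-45615699 on the minus strand for Fgf21, chr2:119350992-119351141 on the plus strand for Chac1 and chr7:126625501-126625650 on the minus strand for Nupr1. The motif began 139, 193 and 110 bases upstream of the annotated start in Fgf21, Chac1 and Nupr1.
Fgf21: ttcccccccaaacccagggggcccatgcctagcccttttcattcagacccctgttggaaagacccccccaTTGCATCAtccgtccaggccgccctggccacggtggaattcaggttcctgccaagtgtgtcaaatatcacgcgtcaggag
Chac1: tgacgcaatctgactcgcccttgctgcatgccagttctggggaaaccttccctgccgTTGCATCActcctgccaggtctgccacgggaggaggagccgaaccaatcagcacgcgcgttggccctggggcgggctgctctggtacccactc
Nupr1: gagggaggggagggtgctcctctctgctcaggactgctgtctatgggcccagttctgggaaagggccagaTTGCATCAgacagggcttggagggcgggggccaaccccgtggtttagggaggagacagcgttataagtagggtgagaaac
Of the 7 list genes with the motif, 4 were higher in iBAT, Fgf21 among them, Nupr1 was lower, and Chac1 and 1 other missed the threshold. The motif TCAAGGTCA, the site of the estrogen-related receptors, was found in 126 of 27025 genes (0.466%), in 0 of 26 thermogenic genes with a promoter, and in 2 of 31 genes of complexes II to V, Atp5g3 and Sdhd.

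The response to unfolded protein in the endoplasmic reticulum had genes in both directions, with 6 of 20 higher and 7 lower (median -0.02). Among all genes tested 20.2% were higher and 42.7% lower. After median-ratio scaling 10 genes of the list were higher and 6 lower (median 0.19). Manf and Hspa5, a secreted protector and the main chaperone, were higher without overlap (0.94 ± 0.12 and 0.51 ± 0.06), while the factor Xbp1 and the disulfide isomerase Pdia4 were lower without overlap (-1.22 ± 0.13 and -1.17 ± 0.12). Antioxidant genes lay on both sides, with 12 of 28 higher and 8 lower (median 0.19), 15 higher and 6 lower after median-ratio scaling, and 10 higher and 9 lower after quantile normalization. The mitochondrial superoxide dismutase Sod2 measured 485, 522 and 615 RPKM in iBAT, against 168, 199.8 and 345 RPKM in iWAT (1.33 ± 0.11, 1.0e-19), with every iBAT library higher. Its mitochondrial partners Prdx3 and Txn2 were higher as well (0.86 ± 0.08 and 1.04 ± 0.09). The glutathione transferase Gsta3 was lower in every iBAT library (-2.01 ± 0.26), and so was the glutathione reductase Gsr (-0.83 ± 0.11).

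Of the genes of candidate heat-making reactions other than Ucp1, some were higher and some lower in iBAT. Of 19 genes of creatine and calcium cycling, 8 were higher in iBAT and 3 lower (median 0.72). Ckb, the brain-type creatine kinase placed in the creatine cycle of thermogenic fat, measured 10.9, 18.7 and 47.0 RPKM in iBAT, against 4.35, 5.66 and 7.77 RPKM in iWAT (1.62 ± 0.16, 1.6e-15). Alpl, a phosphatase placed in the same cycle, measured 14.6, 16.8 and 18.6 RPKM in iBAT, against 3.21, 3.94 and 4.97 RPKM in iWAT (1.86 ± 0.13, 1.3e-22). Every iBAT library was higher for both. The creatine synthesis enzymes Gatm and Gamt were lower in every iBAT library (-1.11 ± 0.16 and -1.07 ± 0.18), while the creatine transporter Slc6a8 was higher by 0.72 ± 0.12. The calcium pump Atp2a2 of the endoplasmic reticulum was higher without overlap, at 91.5, 109 and 113 RPKM in iBAT against 44.2, 51.3 and 54.5 RPKM in iWAT (1.08 ± 0.09). Its fast-muscle relative Atp2a1 measured 36.4, 117 and 408 RPKM in iBAT, against 3.38, 23.7 and 371 RPKM in iWAT (2.02 ± 1.15, adjusted p 0.12). In the fit of the 16 libraries alone the pump Atp2a1 passed as higher (2.02 ± 0.83, adjusted p 0.041). Sarcolipin, Sln, which uncouples that pump in muscle, measured 0.168, 0.711 and 4.21 RPKM in iBAT, against 0, 0 and 0.296 RPKM in iWAT (0.90 ± 0.33), a call lost without the iBAT library 16 (0.69, adjusted p 0.065).

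Muscle transcripts were present in both depots beside those values. Of 29 tested skeletal muscle markers, 11 were higher in iBAT and 0 lower. The summed RPKM of all 32 listed markers, tested or not, was 437, 1339 and 4929 in iBAT, against 57.8, 330.2 and 5491 in iWAT. The ranges thus overlapped widely. The 11 genes that passed included the slow-fibre genes Myl2, Myh7, Tnnc1, Tnni1 and Tnnt1. The oxygen carrier myoglobin, Mb, measured 15.4, 41.6 and 174 RPKM in iBAT against 0.110, 0.843 and 3.52 RPKM in iWAT (4.29 ± 0.83), and the slow light chain Myl2 differed by 3.45 ± 0.80. The fast-fibre actin and myosin genes Acta1 and Myh4 were highest in the iWAT library 60 and gave 1.80 ± 1.08 and 1.52 ± 1.16 (adjusted p 0.14 and 0.25). No marker in the table was listed at 0 in every iBAT library, and in iWAT only Myh3 was. The muscle-type genes Ckmt2, a mitochondrial creatine kinase, and Cox6a2, a cytochrome oxidase subunit, were higher by 2.38 ± 0.72 and 2.32 ± 0.77. The part of muscle cells in these values was not tested. Without libraries 16, 60 and 64, the differences of Ckb and Alpl were 1.48 and 1.92, and 11 muscle markers were again higher.

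**Figure D3:**
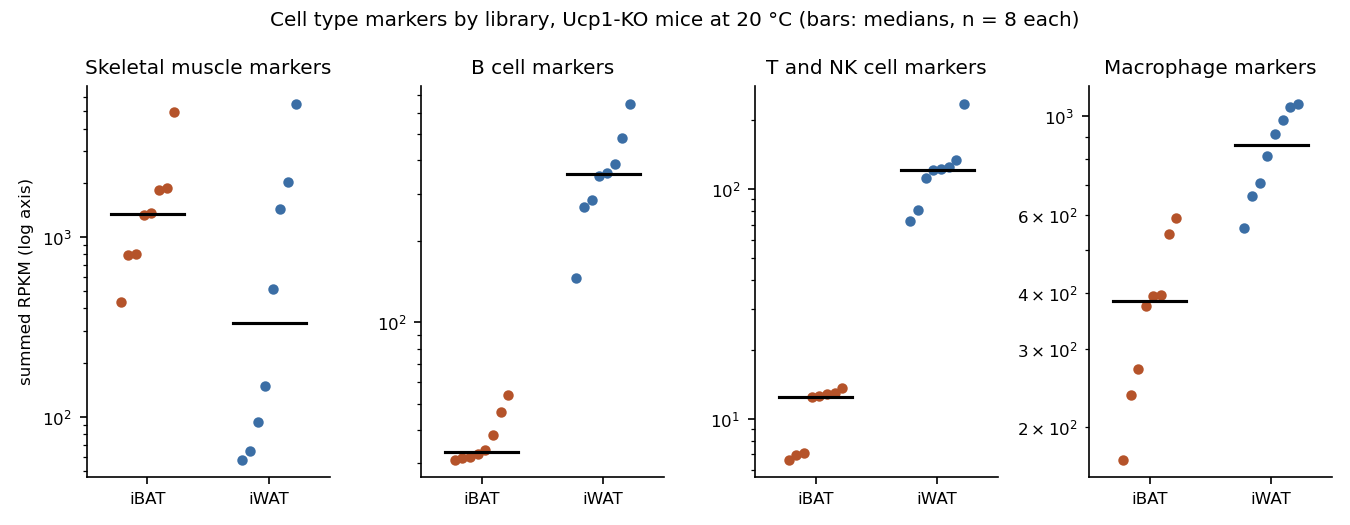
Summed RPKM of the listed markers of 4 cell types, tested or not, in each library on a logarithmic axis, iBAT at the left and iWAT at the right. B cell and T cell sums separate the depots completely, macrophage sums overlap slightly, and muscle sums range over more than an order of magnitude within each depot.

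White adipocyte genes were lower in iBAT. Of 16 tested, 11 were lower and 2 higher (median -1.21), beside 42.7% lower and 20.2% higher among all genes tested. Adipsin, Cfd, a protease of the complement pathway secreted by adipocytes, measured 126, 195 and 278 RPKM in iBAT, against 1665, 3078 and 6086 RPKM in iWAT (-4.02 ± 0.30, 8.9e-21). Leptin, Lep, the satiety hormone, measured 0.732, 1.80 and 2.20 RPKM in iBAT, against 14.4, 22.7 and 57.2 RPKM in iWAT (-3.42 ± 0.39, 1.4e-12). No library overlapped for either gene. Resistin (Retn), the retinol carrier Rbp4 and adiponectin (Adipoq) were lower as well (-3.34 ± 0.25, -2.93 ± 0.19 and -1.25 ± 0.14). The adipogenic factors were split, since Cebpa was lower (-1.37 ± 0.13) and Pparg higher (0.55 ± 0.08), both without overlap. Neither of 2 further adipocyte genes passed as deposited: the fatty acid binding protein Fabp4 gave -0.18 ± 0.15 (adjusted p 0.30) and the droplet coat protein Plin1 gave -0.08 ± 0.11 (adjusted p 0.52). Plin1 passed as lower after quantile normalization (-0.52, adjusted p 8.8e-05).

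Secreted factors lay on both sides. Of 33 tested adipokine genes, leptin and adiponectin included, 9 were higher in iBAT and 15 lower (median -0.39), beside 20.2% higher and 42.7% lower among all genes tested. Ptgds, which makes prostaglandin D2, measured 28.5, 50.9 and 111 RPKM in iBAT, against 0.402, 1.16 and 5.19 RPKM in iWAT (4.57 ± 0.27, 1.8e-26), with no overlap. Growth factors lay on both sides, with Vegfa (0.85 ± 0.12), Fgf9 (1.78 ± 0.12) and Bmp8b (1.11 ± 0.13) higher in iBAT, and Igf1 (-2.43 ± 0.17) and Fgf10 (-2.25 ± 0.18) lower.

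Signalling genes for noradrenaline did not move as a block. Of 26 tested genes of adrenergic and thyroid signalling, 11 were higher in iBAT and 9 lower (median 0.22). Gnas, the stimulatory G protein below the beta receptors, measured 1568, 1924 and 2087 RPKM in iBAT, against 467, 549 and 888 RPKM in iWAT (1.69 ± 0.09, 1.9e-30). The adenylyl cyclases split by isoform, with Adcy3 higher (1.30 ± 0.14) and Adcy5 lower (-2.35 ± 0.19), neither with overlap. The receptors Mc2r for corticotropin and Sucnr1 for succinate were lower (-2.29 ± 0.16 and -2.31 ± 0.20), and so were the inhibitory G proteins Gnai1 (-1.07 ± 0.13) and Gnai2 (-0.74 ± 0.08).

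Genes of lymphocytes were lower in iBAT almost throughout. Of 23 tested markers of T and natural killer cells, 22 were lower in iBAT and 0 higher (median -1.86), and of 17 B cell markers 16 were lower and 0 higher (median -2.78). Cd79b, a signalling chain of the B cell receptor, measured 0.0671, 0.469 and 0.651 RPKM in iBAT, against 16.7, 31.7 and 56.9 RPKM in iWAT (-4.45 ± 0.32, 6.8e-22). Cd3e of the T cell receptor complex measured 0.0601, 0.372 and 0.563 RPKM in iBAT, against 4.39, 6.67 and 12.9 RPKM in iWAT (-2.54 ± 0.26, 2.1e-14). Both genes were close to 0 in every iBAT library. The lymph node list, 9 tested genes of high endothelial venules, lymphatic vessels and follicle stroma, was lower in iBAT for all 9. The summed RPKM of the 11 list genes with values, tested or not, was 6.38, 10.0 and 14.6 in iBAT against 71.4, 101 and 143 in iWAT. Glycam1, a ligand for lymphocyte homing made by high endothelial venules, measured 0, 0 and 0.577 RPKM in iBAT, against 24.4, 30.2 and 54.8 RPKM in iWAT (-4.97 ± 0.29, 2.2e-27). It was listed at 0 in 5 of the 8 iBAT libraries. The summed B cell markers were 31.0, 33.1 and 53.8 RPKM in iBAT, against 146, 355 and 647 in iWAT, and the T cell markers 6.64, 12.5 and 13.6 in iBAT, against 72.7, 121 and 235 in iWAT.

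Macrophage and antigen presentation genes were lower in iBAT as well. Of 24 macrophage markers, 19 were lower in iBAT and 0 higher (median -1.20). Marco, a scavenger receptor of lymph node and marginal zone macrophages, measured 0, 0 and 0.295 RPKM in iBAT, against 11.8, 18.0 and 30.7 RPKM in iWAT (-4.25 ± 0.28). The tissue macrophage genes Csf1r and Cd163 were lower too (-1.70 ± 0.23 and -2.38 ± 0.18). The lipid-handling macrophage genes Gpnmb, Lgals3 and Trem2 overlapped between depots, with 0.40 ± 0.34, -0.42 ± 0.24 and -0.17 ± 0.33 (adjusted p 0.31, 0.12 and 0.68); Lgals3 passed as lower after quantile normalization (-0.54, adjusted p 0.043). All 11 genes of MHC class II presentation were lower (median -1.94), from -1.30 ± 0.20 for H2-Eb1 to -3.78 ± 0.29 for H2-Ob, a gene of B cells. Of 19 proliferation genes, 15 were lower and 1 higher (median -0.41), beside 42.7% lower and 20.2% higher among all genes tested. After quantile normalization 5 were lower, beside 4442 of all 16310 genes. The part of lymph node cells in the lower immune and proliferation genes was not tested.

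Interferon genes were called in shares near those of all genes tested, 20.2% higher and 42.7% lower. Of 28, 4 were higher in iBAT and 11 lower (median -0.26), and the counts became 6 higher and 7 lower after median-ratio scaling. Rsad2, an antiviral enzyme, measured 6.74, 25.9 and 46.3 RPKM in iBAT, against 4.53, 6.41 and 8.61 RPKM in iWAT (1.74 ± 0.24, 1.2e-09), with an overlap at the low end of iBAT. The chemokine Cxcl10 and the ubiquitin-like Ubd were lower (-1.39 ± 0.32 and -1.89 ± 0.27). Isg15, a ubiquitin-like protein of the same response, measured 3.04, 12.3 and 32.1 RPKM in iBAT, against 3.61, 4.82 and 11.7 RPKM in iWAT (0.97 ± 0.31). Without libraries 16, 60 and 64 the list had 2 higher and 12 lower.

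Matrix genes were lower in iBAT. Of 34 genes of collagens and matrix, 27 were lower and 0 higher (median -1.21), and in 20 every iBAT library was below every iWAT library, beside 18% of all genes tested. After median-ratio scaling 2 were higher and 25 lower. Fn1, fibronectin, measured 5.63, 10.5 and 15.2 RPKM in iBAT, against 26.6, 46.3 and 57.7 RPKM in iWAT (-2.0 ± 0.19, 2.8e-16). The fibrillar collagens Col1a1, Col1a2 and Col3a1 were lower as well (-1.54 ± 0.25, -1.68 ± 0.20 and -1.37 ± 0.20), while the basement membrane collagens Col4a1 and Col4a2 gave -0.03 ± 0.13 and 0.14 ± 0.12 (adjusted p 0.88 and 0.31); Col4a2 passed as higher after median-ratio scaling (0.35, adjusted p 0.0095). Of 19 markers of stromal and progenitor cells 16 were lower and 0 higher (median -0.90). Endothelial markers leaned the other way, with 10 of 20 higher and 2 lower (median 0.19), beside 20.2% higher and 42.7% lower among all genes tested. The higher ones included the growth factor receptor Flt1 (0.64 ± 0.11). Mbp, a myelin gene of Schwann cells, was lower (-1.30 ± 0.20). In the nerve and Schwann cell list 10 of 16 tested markers were lower and 1 higher (median -0.27), beside 42.7% and 20.2% of all genes. The counts were 8 lower and 2 higher after median-ratio scaling. After quantile normalization they were 7 lower and 3 higher, with a median of -0.0009.

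By the rule for naming genes, which asks for a mean of 5 RPKM or more, the largest difference in favour of iBAT was that of Gmpr, the guanosine monophosphate reductase, at 291, 436 and 548 RPKM in iBAT, against 5.73, 10.9 and 35.3 RPKM in iWAT (4.99 ± 0.26, 1.5e-30). Every iBAT library was several times above every iWAT library. Lgr6, a receptor for R-spondins, measured 22.8, 34.4 and 41.4 RPKM in iBAT, against 0.828, 1.16 and 5.48 RPKM in iWAT (3.84 ± 0.21). Kng2, a kininogen, Sgk2, a kinase of the serum and glucocorticoid-induced family, Cpne5, a copine, and Cntfr, the receptor subunit for ciliary neurotrophic factor, were higher by 3.50 ± 0.27, 3.46 ± 0.19, 3.16 ± 0.13 and 2.90 ± 0.16. Among the 15 largest differences towards iWAT, 11 were genes of lymphocytes or lymph node, among them Ighv14-2, Glycam1, Cd79a, Cd79b, Ms4a1, Btla, Faim3, Ltb and H2-Ob. The others were Marco and Cd209b of macrophages, Cfd, and Nnat, an imprinted gene of adipocytes and neurons, at 1.62, 4.14 and 7.90 RPKM in iBAT against 21.7, 58.4 and 266 RPKM in iWAT (-3.79 ± 0.36).

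The depot difference was then set against that of wild-type mice at 20 °C, as the Ucp1-KO difference minus the wild-type difference. Positive values mean a shift towards iBAT in the knockout. Of 16310 genes, 7919 (48.6%) had a positive and 1147 (7.03%) a negative value past the threshold, but the split moved to 3797 and 2972 after median-ratio scaling and to 2886 and 3538 after quantile normalization. The median over all genes was 0.31 as deposited, 0.06 after median-ratio scaling and -0.02 after quantile normalization, so lists are read against 0.31. The directions given below held under all 3 scalings unless stated. Of 13 genes of the mitochondrial genome, 7 had values and 6 did not. Wild-type iBAT carried more transcripts of these 7 in the deposited values. They took 7.80 to 18.2% of the summed RPKM in Ucp1-KO iBAT and 18.2 to 19.8% in wild-type iBAT. The part of this in the shift of the other genes was not tested.

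Thermogenic genes shifted towards iWAT in the knockout. Of 35, 25 had a negative and 5 a positive value (median -1.24), beside 7.03% and 48.6% of all genes. Ucp1 averaged 1005 ± 91.7 RPKM in iBAT and 306 ± 128 RPKM in iWAT of Ucp1-KO mice, and 3793 ± 751 and 133 ± 96.6 RPKM in wild-type mice (SD, n = 8 each), a shift of -3.37 ± 0.57 (adjusted p 7.9e-07). For Ucp1 the difference between the depots was thus 1.79 ± 0.40 in the knockout and 5.16 ± 0.40 in the wild type. Dio2 averaged 162 ± 36.6 RPKM in iBAT and 48.5 ± 11.7 RPKM in iWAT of Ucp1-KO mice, and 131 ± 36.3 and 4.77 ± 4.22 RPKM in wild-type mice, a shift of -3.06 ± 0.37 (1.3e-10). The iWAT means of Dio2 lay further apart between the genotypes than the iBAT means. Cidea, Elovl3, Cpt1b and Otop1, a proton channel, shifted by -2.08 ± 0.31, -2.19 ± 0.46, -2.17 ± 0.28 and -2.13 ± 0.24. Respiratory chain genes shifted the same way by less: 25 of 36 for complex I (median -0.48) and 32 of 39 for complexes II to V (median -0.59) had a negative value and 0 a positive one as deposited. All 7 measured genes of the mitochondrial genome did so too, 5 of them after quantile normalization, COX1 not among these. The 7 include COX2, COX3 and ND3, whose values are uncertain. COX1 averaged 15410.0 ± 4543 RPKM in iBAT and 14980.0 ± 2105 RPKM in iWAT of Ucp1-KO mice, and 26015 ± 1526 and 11660.0 ± 1990.0 RPKM in wild-type mice, a shift of -1.18 ± 0.21 as deposited and of 0.00 (adjusted p 0.99) after quantile normalization, which sets the highest values of all libraries equal.

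Stress response genes shifted the opposite way. Of 30 genes of the integrated stress response, 25 had a positive value and 0 a negative one (median 1.25). Among all genes the shares were 48.6% positive and 7.03% negative. The list counts were 23 and 1 after median-ratio scaling and 22 and 2 after quantile normalization. Fgf21 averaged 36.3 ± 13.8 RPKM in iBAT and 5.55 ± 4.50 RPKM in iWAT of Ucp1-KO mice, and 0.384 ± 0.330 and 0.737 ± 0.827 RPKM in wild-type mice (SD, n = 8 each), a shift of 2.92 ± 0.32 (6.4e-12). Gdf15 averaged 33.9 ± 13.4 RPKM in iBAT and 4.81 ± 2.35 RPKM in iWAT of Ucp1-KO mice, and 0.140 ± 0.135 and 0.741 ± 0.353 RPKM in wild-type mice, a shift of 3.15 ± 0.42 (2.2e-09). Both hormones were thus near 0 in both depots of the wild type. Mthfd2 and Psat1 shifted by 3.13 ± 0.27 and 2.76 ± 0.23; for Psat1 the depot difference was -0.51 ± 0.16 in the knockout and -3.27 ± 0.16 in the wild type, so its iBAT level was lower in both genotypes but far less so in the knockout. Hk1, Ckb and the calcium pump Atp2a3 also shifted towards iBAT, by 1.80 ± 0.22, 1.71 ± 0.22 and 2.43 ± 0.19. For Atp2a3 the depot difference in the knockout itself was not positive. It was -0.37 to -0.21 over the 16 fits that left out a library, and passed as lower in 5 of them. Alpl gave a shift of 0.08 ± 0.18 (adjusted p 0.74), which turned to -0.46 (adjusted p 0.033) after quantile normalization.

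**Figure D4:**
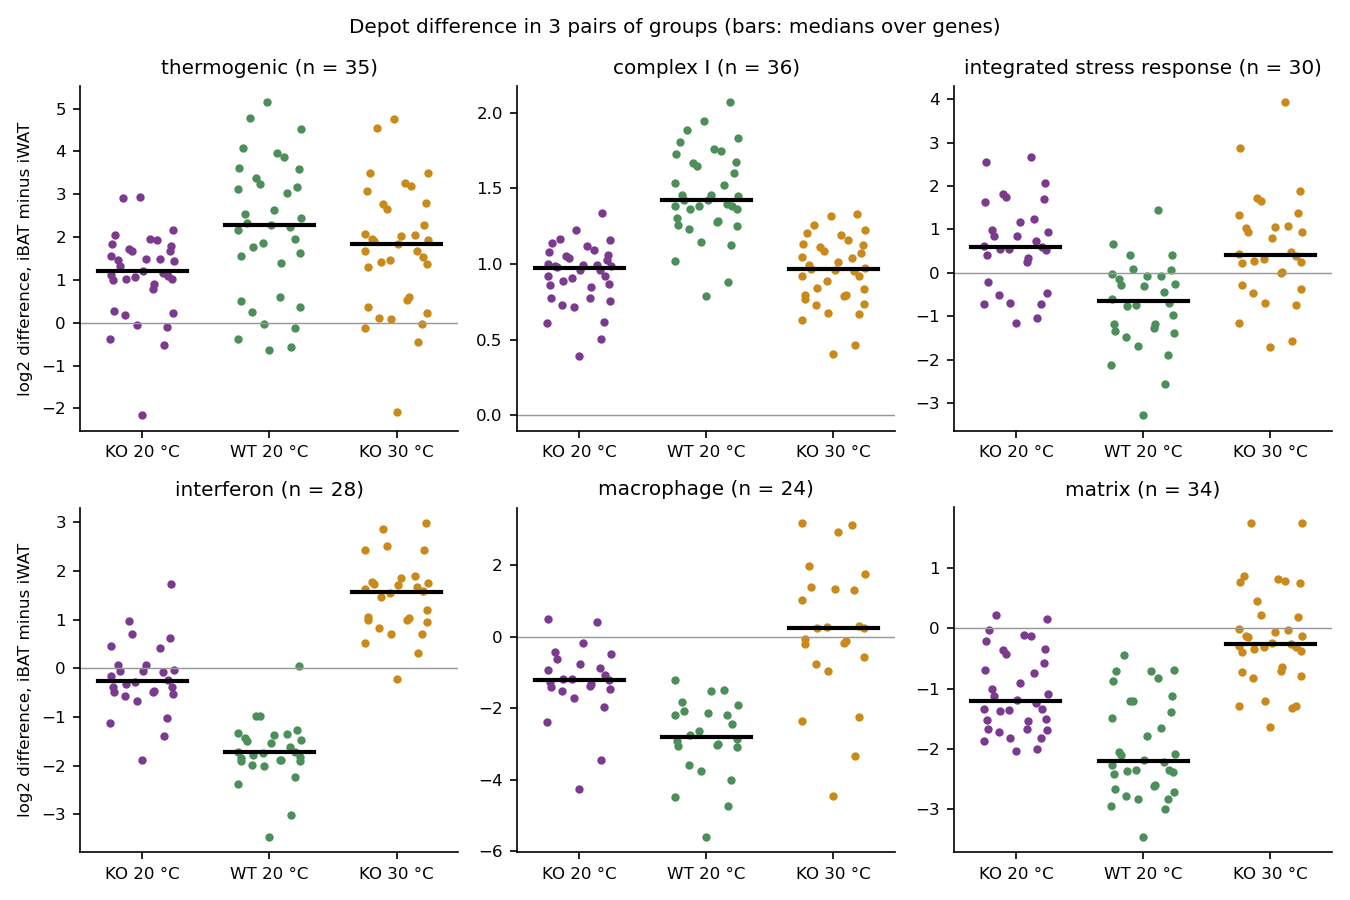
Depot difference (iBAT minus iWAT, log2) of the tested genes of 6 lists in Ucp1-KO mice at 20 °C, wild-type mice at 20 °C and Ucp1-KO mice at 30 °C; points are genes and bars are medians. Thermogenic genes have their lowest median in Ucp1-KO mice at 20 °C, stress response genes are positive in both knockout pairs, and interferon genes are highest in Ucp1-KO mice at 30 °C.

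Immune and matrix genes were less tilted to iWAT in the knockout than in the wild type. All 11 MHC class II genes and 22 of 24 macrophage markers had a positive value (medians 1.97 and 1.48). So did 22 of 23 T cell markers, 16 of 17 B cell markers and 29 of 34 matrix genes (medians 1.26, 1.38 and 0.97). Among all genes 48.6% were positive, with a median of 0.31. For matrix genes the counts were 21 positive and 1 negative after median-ratio scaling, and 19 and 1 after quantile normalization. Lgals3, a lectin of lipid-laden macrophages, averaged 72.2 ± 41.3 RPKM in iBAT and 84.5 ± 11.9 RPKM in iWAT of Ucp1-KO mice, and 7.12 ± 2.60 and 93.9 ± 13.9 RPKM in wild-type mice (3.17 ± 0.34, 1.0e-12). The means of Lgals3 lay further apart between the genotypes in iBAT than in iWAT. Of 28 interferon genes 26 had a positive value (median 1.47), among them Irf7, an interferon-induced factor, at 2.78 ± 0.36. The smallest p-values among positive shifts belonged to Cpne5 (2.92 ± 0.18), Mal, a myelin and lymphocyte protein (3.18 ± 0.20), Gtpbp2 (1.63 ± 0.12) and Alas1, the first enzyme of haem synthesis (2.43 ± 0.18). Among negative shifts they belonged to the sulfite oxidase Suox (-1.31 ± 0.11), the bicarbonate transporter Slc4a4 (-1.72 ± 0.16) and Atl2 (-1.72 ± 0.16).

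The last comparison set the depot difference of Ucp1-KO mice at 20 °C against that at 30 °C. Over all genes, 1093 (6.7%) had a positive and 3067 (18.8%) a negative value past the threshold; the split was 2296 and 2095 after median-ratio scaling and 2089 and 1960 after quantile normalization. The wild-type and 30 °C comparisons share the 16 libraries of Ucp1-KO mice at 20 °C, so their values are not independent. All 28 interferon genes had a negative value past the threshold under each of the 3 scalings (median -1.51 as deposited). Ubd averaged 1.29 ± 0.481 RPKM in iBAT and 7.47 ± 1.92 RPKM in iWAT at 20 °C, and 46.7 ± 22.6 and 13.4 ± 4.22 RPKM at 30 °C (SD, n = 8 each), a shift of -3.55 ± 0.39 (9.7e-12). Irf7 averaged 16.7 ± 10.1 RPKM in iBAT and 17.9 ± 5.85 RPKM in iWAT at 20 °C, and 83.8 ± 39.2 and 25.6 ± 4.76 RPKM at 30 °C, a shift of -1.83 ± 0.36 (6.1e-05). For both genes the highest of the 4 means was that of iBAT at 30 °C. Beside this, 19 of 24 macrophage markers had a negative value and 0 a positive one (median -1.29), and their summed RPKM was 169, 384 and 589.7 in iBAT and 561, 863 and 1067 in iWAT at 20 °C, against 714, 2235 and 3023 in iBAT and 857, 1256 and 1912 in iWAT at 30 °C. The part of macrophages in the interferon values was not tested.

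Antioxidant genes under the factor Nrf2 shifted in the same direction. Of 28 redox genes, 13 had a negative and 1 a positive value (median -0.38), beside 18.8% negative and 6.7% positive among all genes tested. Srxn1, sulfiredoxin, averaged 71.0 ± 14.3 RPKM in iBAT and 40.2 ± 10.1 RPKM in iWAT at 20 °C, and 292 ± 71.4 and 17.0 ± 4.30 RPKM at 30 °C, a shift of -3.20 ± 0.23 (3.6e-20). Hmox1, haem oxygenase 1, averaged 40.3 ± 16.8 RPKM in iBAT and 50.7 ± 15.8 RPKM in iWAT at 20 °C, and 563 ± 179 and 82.6 ± 34.7 RPKM at 30 °C (-3.16 ± 0.38, 2.8e-10). For both genes the high value was that of iBAT at 30 °C. Gclm, Txnrd1, Gsr and the autophagy receptor Sqstm1 shifted by -1.76 ± 0.19, -1.25 ± 0.15, -1.31 ± 0.15 and -2.08 ± 0.19. Matrix genes shifted as well, 26 of 34 with a negative and 0 with a positive value (median -0.86).

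Thermogenic genes that changed between temperatures mostly had a negative value. Of 35, 12 had a negative and 2 a positive value (median -0.42), beside 18.8% negative and 6.7% positive among all genes tested. Dio2 shifted by -2.82 ± 0.37 (5.2e-09), with means of 162 RPKM in iBAT and 48.5 RPKM in iWAT at 20 °C, against 242 ± 65.4 RPKM in iBAT and 9.86 ± 4.24 RPKM in iWAT at 30 °C. Ucp1 gave a shift of -1.41 ± 0.57 (adjusted p 0.056), which passed after quantile normalization only (adjusted p 0.039). Of the respiratory chain subunits, 1 of 36 for complex I and 3 of 39 for complexes II to V were past the threshold. The stress response list had 4 positive and 3 negative values; Fgf21 gave 0.79 ± 0.32 (adjusted p 0.062) and Gdf15 -1.38 ± 0.42 (adjusted p 0.0092), with Gdf15 means of 43.7 ± 11.4 RPKM in iBAT and 2.07 ± 1.27 RPKM in iWAT at 30 °C. The shift of Fgf21 passed after median-ratio scaling (1.05, adjusted p 0.011) and without libraries 16, 60 and 64 (1.05, adjusted p 0.0073). Ptgds averaged 65.7 ± 36.0 RPKM in iBAT and 1.87 ± 1.86 RPKM in iWAT at 20 °C, and 2.20 ± 1.21 and 0.811 ± 0.352 RPKM at 30 °C (3.81 ± 0.39, 4.8e-13). Cpne5 shifted by 3.16 ± 0.18. Branched-chain amino acid breakdown leaned towards iBAT at 20 °C, 10 of 22 genes with a positive and 1 with a negative value (median 0.32).

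**Figure D5:**
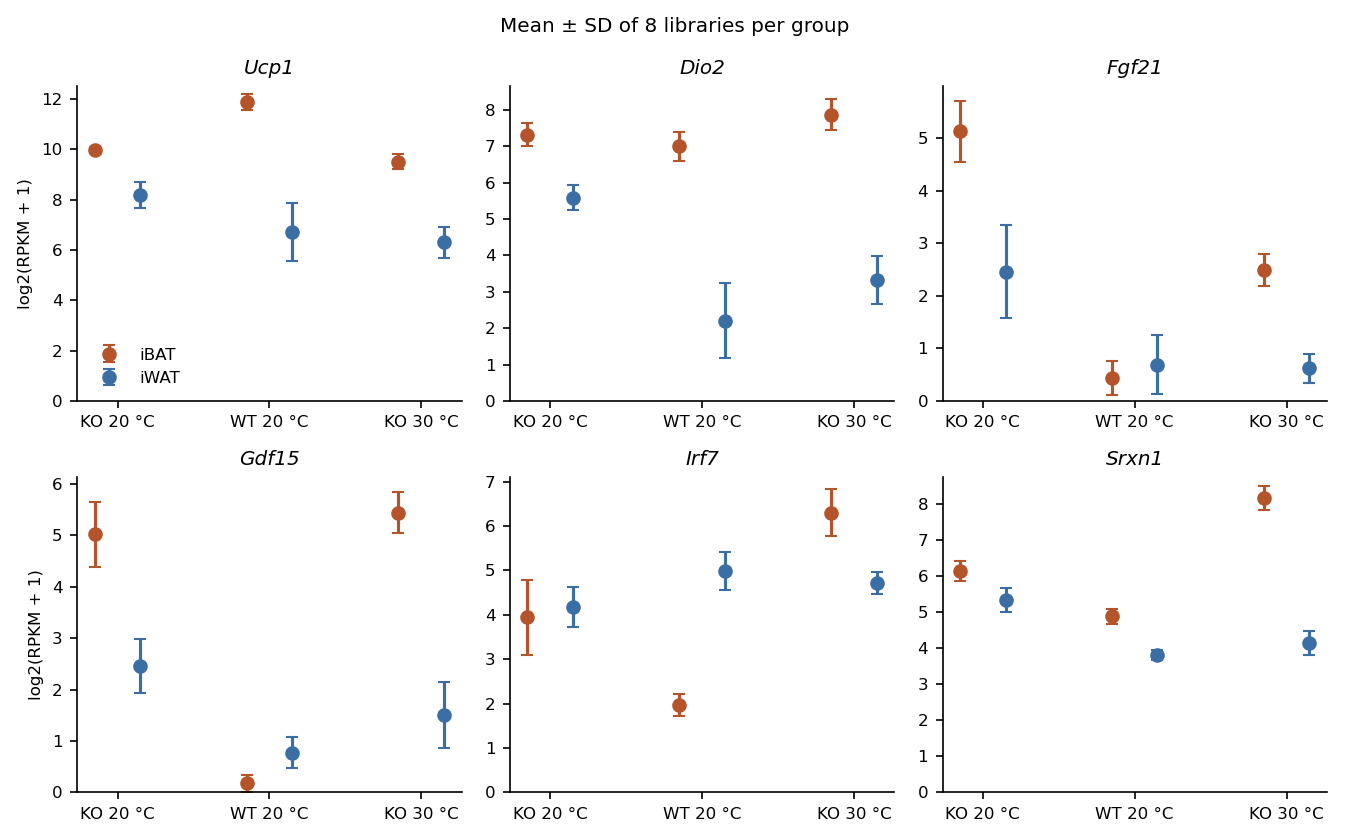
Mean expression and SD (n = 8 libraries) of 6 genes as log2(RPKM + 1) in iBAT and iWAT of Ucp1-KO mice at 20 °C, wild-type mice at 20 °C and Ucp1-KO mice at 30 °C. Fgf21 and Gdf15 are near 0 in both wild-type depots, Dio2 differs between the groups mainly in iWAT, and Srxn1 and Irf7 are highest in iBAT at 30 °C.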

How the data were processed

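RNA of both fat depots was sequenced from stranded mRNA libraries, per the labels. The authors deposited transcript abundances in RPKM for all 96 libraries, per the file header. CASAVA and bcl2fastq are listed in the submitters' processing notes, and for the aligner and the build a name is not given in the sources used here. Transcript rows without a gene identifier (13.8% of rows, 9.85% of the summed RPKM) were left out, and the transcript with the highest mean stood for each symbol. Genes with at least 0.5 RPKM in 8 libraries were put on the log2(RPKM + 1) scale and tested in limma 3.58.1 (limma-trend, R 4.3.3), in a fit of 12 group means over all 96 libraries, with Benjamini-Hochberg adjustment over all genes tested. The script was tested on simulated data. Depth was recovered from low values lying within 0.05 of a whole read, up to 20 reads, and in the 16 libraries compared 1 read per kilobase equalled 0.0621 to 0.112 RPKM. Tables were made in Python 3.11.15.

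The comparisons were iBAT minus iWAT in Ucp1-KO mice at 20 °C, and the change of that difference against wild-type mice at 20 °C and against Ucp1-KO mice at 30 °C. P-values measure the spread between libraries, which the fit took as independent. By the series design each animal gave both depots, and the standard errors and p-values of the depot difference take no account of this. Alternatives were the scaling, the pseudocount, the filter, the sum of transcripts, robust limma, the 16 libraries alone and leaving out each library. Members and gene lists were chosen with earlier results of these data known. Besides list members, the rule named the 15 largest differences each way at a mean of 5 RPKM or more in the higher depot, and the 6 smallest p each way of both changes. Some genes that the rule names are not reported here.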

Additional observations from a re-analysis of the deposited data

Results flagged for a closer look

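Single libraries stood apart from the other 7 of their group for some named genes. A library is listed where its gap to the next one, as a share of the range of log2 values, exceeded Dixon's 95% critical value for 8 libraries. This held in 45 of 422 gene and depot combinations (10.7%), and chance alone gives about 1 in 20. The iBAT library 16 accounted for 17 of these. It held the highest iBAT values of Atp5j (165 RPKM), Ckmt2 (51.3 RPKM), Cox7a2 (586 RPKM), Cox7c (1.77 RPKM), Hk1 (107 RPKM), Kcnk3 (457 RPKM), Ldhb (270.4 RPKM), Ndufs8 (324 RPKM), Slc25a4 (434 RPKM), Slc25a5 (145 RPKM), Slc6a8 (13.0 RPKM), Tnnc1 (65.3 RPKM) and Txn2 (291 RPKM). It held the lowest iBAT values of Atp2a2 (91.5 RPKM), Ebf2 (6.19 RPKM), Gpam (81.8 RPKM) and Otop1 (65.1 RPKM). Its summed muscle markers were the highest of the depot at 4929 RPKM, beside 437 to 1872 RPKM in the other 7 iBAT libraries, and the part of muscle in these values was not tested.

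The iWAT library 64 accounted for 19. It held the highest iWAT values of Acadvl (601 RPKM), Atf5 (223 RPKM), Atp5b (2815 RPKM), Cox7a1 (458 RPKM), Cox7a2 (359 RPKM), Kcnk3 (203 RPKM), Lgr6 (5.48 RPKM), Manf (41.8 RPKM), Ndufs8 (154 RPKM), Prdx3 (249 RPKM), Sdhb (375 RPKM), Sdhd (384 RPKM), Slc25a5 (91.8 RPKM), Sln (0.296 RPKM), Sod2 (345 RPKM), Txn2 (172 RPKM) and Uqcrc1 (392 RPKM). It held the lowest iWAT values of Col1a1 (22.5 RPKM) and Ucp2 (72.2 RPKM). Its summed thermogenic genes came to 6729 RPKM, the highest of the depot, beside 2938 to 4532 RPKM in the other 7 iWAT libraries; the 8 iBAT libraries held 8917 to 11506 RPKM. The remaining 9 values were those of Hoxd3 in iBAT library 9 (0.237 RPKM, highest), Hoxa9 in iBAT library 11 (1.13 RPKM, highest), Sgk2 in iBAT library 12 (10.5 RPKM, lowest), Ms4a1 in iBAT library 14 (0.396 RPKM, highest), Myh7 in iWAT library 57 (0.573 RPKM, highest), Myl2 in iWAT library 57 (0.903 RPKM, highest), Tnni1 in iWAT library 57 (0.569 RPKM, highest), COX3 in iWAT library 60 (6.57 RPKM, highest) and Scd1 in iWAT library 63 (16966 RPKM, lowest).

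The difference between the depots itself differed between groups by the tests of the report, given as log2 shifts at an adjusted p under 0.05. Between Ucp1-KO and wild-type mice at 20 °C, positive shifts were those of Alas1 (2.43), Atp2a3 (2.43), Ckb (1.71), Cpne5 (2.92), Fgf21 (2.92), Gdf15 (3.15), Gtpbp2 (1.63), Hk1 (1.80), Irf7 (2.78), Lgals3 (3.17), Mal (3.18), Mthfd2 (3.13) and Psat1 (2.76). Negative shifts were those of Atl2 (-1.72), COX1 (-1.18), Cidea (-2.08), Cpt1b (-2.17), Dio2 (-3.06), Elovl3 (-2.19), Otop1 (-2.13), Slc4a4 (-1.72), Suox (-1.31) and Ucp1 (-3.37). Between 20 °C and 30 °C in Ucp1-KO mice, positive shifts were those of Cpne5 (3.16) and Ptgds (3.81). Negative shifts were those of Dio2 (-2.82), Gclm (-1.76), Gdf15 (-1.38), Gsr (-1.31), Hmox1 (-3.16), Irf7 (-1.83), Sqstm1 (-2.08), Srxn1 (-3.20), Txnrd1 (-1.25) and Ubd (-3.55). Both sets contain the same 16 libraries of Ucp1-KO mice at 20 °C.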

How the results depend on the processing

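Scaling moved the counts most. After median-ratio scaling 5057 genes were higher in iBAT; after quantile normalization 5499 were higher and 4442 lower. The depot difference (iBAT minus iWAT) was larger, meaning more positive, in Ucp1-KO than in wild-type mice for 3797 genes and smaller for 2972 after median-ratio scaling, and larger for 2886 and smaller for 3538 after quantile normalization. It was larger at 20 °C than at 30 °C for 2296 genes after median-ratio scaling, and larger for 2089 and smaller for 1960 after quantile normalization. Over the other alternatives, these counts stayed within 1.5 times those of the report. Leaving out each of the 16 libraries gave 3101 to 3364 genes higher in iBAT and 6496 to 7095 lower. The direction of the depot difference turned after quantile normalization for COX1 (0.28), Cox8a (-0.080), Ldha (-0.13), Hoxb3 (0.12) and Hoxb5 (0.059). The change of the depot difference against wild-type mice turned for Alpl (-0.46) and COX1 (0.0019) under that normalization. The cause was not tested. Of the other values of named genes for the depot difference, 50 passed the threshold only under an alternative and 45 lost it; Elovl6 lost it most often, in 11 of the 16 fits that left out a library. Leaving out the iBAT library 16 and the iWAT libraries 60 and 64 together was chosen after seeing the data. No paired analysis was possible because the labels carry no number shared by both depots of an animal. Depth limits genes near the level of a single read, and a change of the number of cells of a type cannot be told apart from a change per cell.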
